A study of Mus musculus with 6 samples.

Results

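Replication-dependent histone genes were followed here as the rows of the count table whose gene name begins with Hist1h, Hist2h, Hist3h or Hist4h, 68 of 24421 rows. They comprise 6 genes of the linker histone H1 and 18 of H2A, 19 of H2B, 12 of H3 and 13 of H4, the 4 core histones of the nucleosome. In the clusters that their names give, 54 lie in Hist1 on chromosome 13, 10 in Hist2 on chromosome 3, 3 in Hist3 on chromosome 11 and 1 in Hist4 on chromosome 6. The H2B and Hist3 counts include Hist3h2bb-ps, which its name marks as a pseudogene. The 6 RNA libraries were of lineage-depleted bone marrow, that is, marrow left after cells carrying markers of mature lineages have been removed on columns. All libraries came from C57BL/6 mice of genotype Dek -/-, 3 treated with vehicle and 3 with exogenous DEK, the chromatin-associated protein encoded by the disrupted gene. The labels give no age, dose, duration, form of the DEK protein or composition of the vehicle, and no library comes from animals with an intact Dek gene. They also do not say whether equal replicate numbers share an animal or a day, or whether the libraries of a group come from separate animals, so p-values measure the spread between these libraries, which may be technical.

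Replication-dependent histone genes supply the bulk of new histone protein when DNA is copied, and their transcripts are abundant in S phase. Most of these transcripts end just after a conserved stem-loop instead of in a poly(A) tail; SLBP binds the stem-loop, and the U7 small nuclear ribonucleoprotein directs the cut that forms the end. Library preparation selected for poly(A) tails, which retains such transcripts only in part. Some members can also be polyadenylated at a site past the stem-loop, and differentiated cells are known to use such sites.

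The stem-loop is the feature by which most of these transcripts escape poly(A) selection, and examples are printed here from members with very different values. The search that found them fixed most of the letters, so their likeness to each other was largely set by the search. They are DNA letters 5′ to 3′ of the transcribed strand, from GENCODE M21 transcripts on GRCm38 (mm10), with the 16 bases of the stem-loop in capitals and 5 bases on each side.
Hist1h1c: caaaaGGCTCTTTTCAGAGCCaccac
Hist1h1e: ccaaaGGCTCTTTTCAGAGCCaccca
Hist3h2a: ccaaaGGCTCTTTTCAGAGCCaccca
Hist1h2be: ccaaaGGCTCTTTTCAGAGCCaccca
Hist1h3c: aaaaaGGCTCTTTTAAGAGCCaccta
Hist1h4i: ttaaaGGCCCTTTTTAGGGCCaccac
Hist1h4d: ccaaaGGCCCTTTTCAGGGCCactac
Hist1h4b: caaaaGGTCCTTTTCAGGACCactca
These stretches lie at chr13:23739507-23739532 (plus strand) for Hist1h1c, chr13:23621777-23621802 (minus) for Hist1h1e, chr11:58955167-58955192 (plus) for Hist3h2a and chr13:23585526-23585551 (minus) for Hist1h2be. Those of Hist1h3c and Hist1h4i lie at chr13:23745042-23745067 and chr13:22040961-22040986, both on the minus strand. Those of Hist1h4d and Hist1h4b lie at chr13:23581945-23581970 and chr13:23757361-23757386, both on the plus strand.

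A stem-loop with the stem strands GGNNCT and AGNNCC around the 4-base loop TTNN, searched on the transcribed strand with its 6-base stem required to pair, was present in the GENCODE transcripts of 44 of the 68 members (64.7%). Of all 55450 genes of that annotation, 57 (0.103%) held it, 13 of them no members. The version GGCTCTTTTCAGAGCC stood in 26 members, 3 of H1, 10 of H2A, 8 of H2B and 5 of H3, and in no H4 gene. The H4 genes carried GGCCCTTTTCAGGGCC (7 members), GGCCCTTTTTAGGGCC (2, Hist1h4i and Hist2h4) or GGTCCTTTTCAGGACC (2, Hist1h4b and Hist1h4j). The remaining versions were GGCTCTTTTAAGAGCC in 6 members and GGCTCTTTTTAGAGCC in Hist2h2ac. For the other 24 members, no match says only that these letters are not in the annotated transcripts, some of which stop short of it.

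At their 5′ ends the members also shared letters that the choice of genes did not use. RefSeq promoter windows (GRCm38.p6, 250 bases before to 50 after the start) were matched for 61 members. CCAAT on either strand stood in 85.2% of them, against 41.1% of all 27025 genes with such a window. TATAAA stood in 57.4% against 15.7%, and the octamer ATTTGCAT in 23.0% against 1.97%. CCAAT was found in every matched gene of H1, H2A, H2B and H3 and in 3 of 12 H4 genes (25%), and the octamer in 7 of 17 H2A genes and 7 of 16 H2B genes and in none of the rest. H2A and H2B neighbours that point away from each other share part of one window, so these are not independent counts. The 150 bases before the start are shown for 3 of the best expressed genes, of H1, H2A and H4, with the matches in capitals.
Hist1h1c: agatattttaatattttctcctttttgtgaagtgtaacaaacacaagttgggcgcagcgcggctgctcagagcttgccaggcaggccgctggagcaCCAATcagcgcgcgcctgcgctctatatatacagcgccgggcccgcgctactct
Hist3h2a: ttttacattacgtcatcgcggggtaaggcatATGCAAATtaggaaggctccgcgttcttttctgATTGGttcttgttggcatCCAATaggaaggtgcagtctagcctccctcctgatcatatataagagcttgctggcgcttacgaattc
Hist1h4i: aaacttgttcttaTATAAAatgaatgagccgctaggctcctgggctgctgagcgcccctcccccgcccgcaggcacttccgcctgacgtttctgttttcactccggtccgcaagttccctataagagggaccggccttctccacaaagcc
They lie at chr13:23738657-23738806 (plus strand) for Hist1h1c, chr11:58954535-58954684 (plus) for Hist3h2a and chr13:22041363-22041512 (minus) for Hist1h4i. ATGCAAAT and ATTGG are the octamer and CCAAT read on the opposite strand.

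Reads were found for most members but in small numbers. A read in at least 1 library was counted for 56 of 68 members (82.4%), against 73.9% of all rows, yet only 34 members had a read in every library, 10 had at least 10 reads in every library and 5 reached 1 CPM (a count scaled to the size of its library) in every library. The filter on low counts that precedes the test kept 21 members (30.9%), against 13803 of 24421 rows (56.5%). By type, it kept 5 of 6 H1 genes, 2 of 18 H2A genes, 7 of 19 H2B genes, 2 of 12 H3 genes and 5 of 13 H4 genes. Replication-independent histone genes mostly have transcripts with poly(A) tails. Of the 14 listed here with a row, 11 were kept, and the same 11 reached 1 CPM in every library. A filter on low counts passes genes in part through the group in which they are high, so values over the 21 do not stand for all 68.

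**Figure D1:**
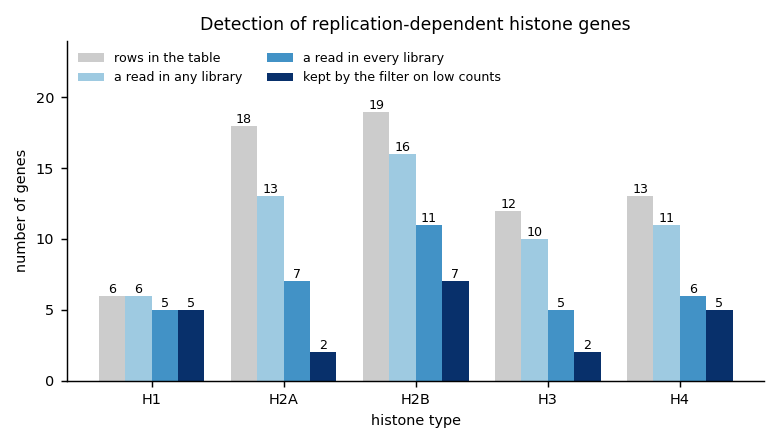
Number of replication-dependent histone genes by histone type: rows in the table, genes with a read in any of the 6 libraries, genes with a read in every library and genes kept by the filter on low counts. H2A falls from 18 rows to 2 tested genes and H3 from 12 to 2, while H1 keeps 5 of 6. The types differ in exon length and in sequence shared between genes, so the bars do not compare expression between types.

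No read was counted for 12 members. Of these, 10 lie in 5 pairs of rows that share exons with each other, namely Hist1h2bq and Hist1h2br, Hist1h2ao and Hist1h2ap, Hist1h4m and Hist1h4n, Hist2h3c1 and Hist2h3c2, and Hist2h2aa1 and Hist2h2aa2. Reads in exons of more than 1 row were dropped by the counting, and no member with a read shares exons with another row. Hist1h4n has 732 exon bases and Hist1h4m 405, so part of Hist1h4n is not shared, yet it had no read. These 10 members also have 63.5% to 100% of their 50-base windows in other genes' transcripts. Which of these accounts for the zeros was not tested. The 2 others are Hist1h2aa and Hist1h2ba. A count of 0 allows up to 3 reads, or 0.0611 to 0.086 CPM depending on the library, which covers counting error only. For 32 members at least 50% of the 50-base windows of their transcripts recur in another gene's transcripts, among the tested genes Hist1h3e, Hist1h4b and Hist2h2bb, and reads of such near-identical copies can be lost or misplaced, so their values are uncertain. No member shares exons with a row on the opposite strand.

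The share of all counts that fell in members was 0.0104%, 0.00821% and 0.0119% for vehicle replicates 1, 2 and 3 and 0.00563%, 0.0058% and 0.00983% for DEK replicates 1, 2 and 3. The widest 95% Wilson interval of these shares, that of vehicle replicate 3, ran from 0.0115% to 0.0123%, and reads carry no molecular identifiers, so intervals cover counting error only. Vehicle libraries averaged 0.0102% ± 0.00185 (SD, n = 3), DEK libraries averaged 0.00709% ± 0.00238 (SD, n = 3), and the groups overlapped: DEK replicate 3 lay above vehicle replicate 2. In bulk samples such as these, fewer cells that make these transcripts and less of the RNA per cell cannot be told apart.

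A few members supplied most of the reads. Per length of annotated exon and library size (RPKM), the mean over 6 libraries was highest for Hist1h1c, a linker histone gene, at 37.0, followed by the H2B gene Hist1h2bc at 23.8, the H2A gene Hist3h2a at 13.3, the H2B gene Hist2h2be at 6.50 and the H4 gene Hist1h4i at 5.57. No H3 gene reached 1 RPKM, the highest being Hist1h3e at 0.988, Hist1h3b at 0.604 and Hist1h3c at 0.582. Behind Hist3h2a the next H2A genes were Hist1h2ak at 0.479 and Hist1h2ab at 0.473, neither of them kept by the filter. The next linker histone genes were Hist1h1e at 1.89 and Hist1h1b at 1.19, and the next H4 genes Hist1h4d at 1.74 and Hist1h4h at 1.28. For scale, H2afx and Cenpa, listed as replication-independent and encoding H2A.X and the centromeric H3, had means of 109 and 55.1 RPKM. Whether all their reads came from transcripts with a tail was not tested.

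Values per library follow for the 5 members with the highest mean RPKM, as CPM scaled by the trimmed mean of M-values (TMM). Hist1h1c measured 20.9, 20.2 and 48.6 CPM in vehicle replicates 1, 2 and 3 and 14.7, 15.6 and 41.2 CPM in DEK replicates 1, 2 and 3. Its libraries numbered 3 were the highest of each group, and within each number DEK lay below vehicle. Hist1h2bc measured 12.7, 14.8 and 33.0 CPM with vehicle and 12.2, 9.18 and 28.8 CPM with DEK, with the same 2 libraries on top. Hist3h2a, at 6.43, 8.75 and 7.02 CPM with vehicle and 5.25, 5.70 and 7.47 CPM with DEK, showed overlapping groups and no high libraries. Hist2h2be stood at 17.9, 25.0 and 16.2 CPM with vehicle and 14.7, 15.4 and 12.8 CPM with DEK. Every DEK library lay below every vehicle library for Hist2h2be. Hist1h4i measured 1.72, 1.90 and 3.54 CPM with vehicle and 1.38, 1.89 and 3.03 CPM with DEK, and its groups overlapped.

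Among the weaker members, 1 library stood apart. Vehicle replicate 1 was the highest of the 6 libraries for 45 of the 56 members with a read and for 14 of the 21 tested members (66.7%), against 13.4% of all tested genes. In those 14 its level was 2.78 to 8.12 times the pooled level of the other 5 libraries, with a median of 5.55. A ratio of at least 2 was seen in 1.02% of all tested genes. The other 7 tested members, Hist1h1c, Hist1h2bc, Hist1h2be, Hist1h4i, Hist2h2be, Hist3h2a and Hist3h2ba, had ratios of 0.679 to 1.08, and no tested member fell between. This division was made after the values were seen and is a description, with no test.

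Hist1h1a, the linker histone gene with the highest ratio, measured 2.03 CPM in vehicle replicate 1, 0.225 and 0.238 CPM in vehicle replicates 2 and 3 and 0.179, 0.315 and 0.278 CPM with DEK. Hist1h4d measured 2.33, 0.200 and 0.387 CPM with vehicle and 0.179, 0.394 and 0.347 CPM with DEK. For both genes the vehicle libraries 2 and 3 lay within the range of the DEK libraries. Hist1h1b, another linker histone gene, measured 3.29, 0.375 and 0.863 CPM with vehicle and 0.246, 0.296 and 0.625 CPM with DEK. Hist1h1e gave 4.28, 0.375 and 1.67 CPM with vehicle and 0.692, 0.631 and 1.20 CPM with DEK. In Hist1h1b and Hist1h1e the libraries numbered 3 ranked after vehicle replicate 1. Hist1h3e, of H3, stood at 1.58, 0.0750 and 0.417 CPM with vehicle and 0.156, 0.256 and 0.301 CPM with DEK. Hist2h2bb, of H2B, gave 2.64, 0.150 and 0.952 CPM with vehicle and 0.446, 0.453 and 0.347 CPM with DEK, so that the lowest library of each of these 2 genes was a vehicle library.

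**Figure D2:**
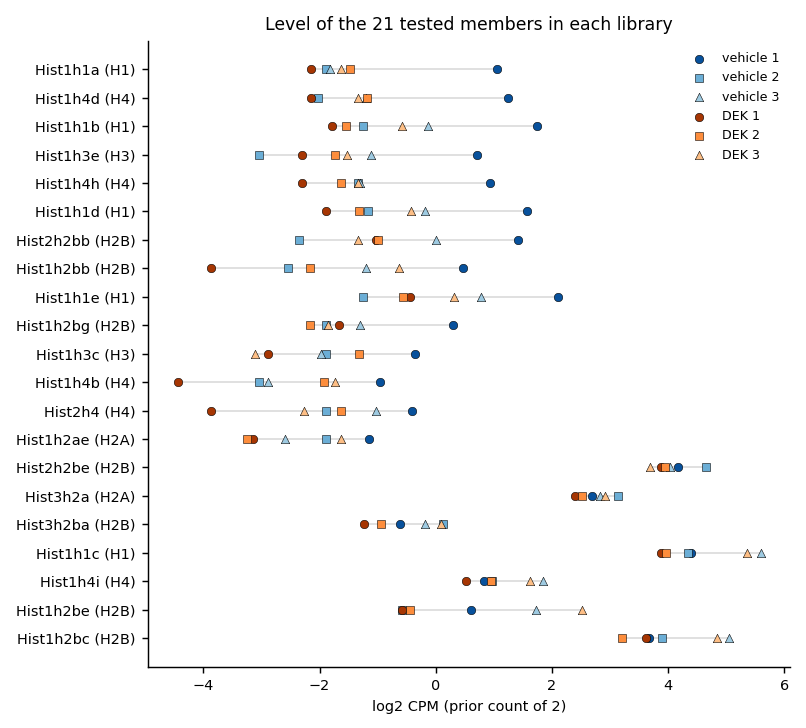
Level of each tested member in each library, as log2 CPM with a prior count of 2; genes are ordered by the ratio of vehicle replicate 1 to the other 5 libraries, highest on top, and the grey line spans the 6 libraries. Vehicle replicate 1 is the rightmost point of the upper 14 genes and lies among the other libraries in the lower 7.

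Summed over the 7 members with a ratio below 2, the level was 61.7, 72.3 and 112 CPM in vehicle replicates 1, 2 and 3 and 49.2, 48.99 and 99.98 CPM with DEK. Summed over the other 61 members it was 41.6 CPM in vehicle replicate 1 and 4.24 to 10.95 CPM in the other 5 libraries. The 7 genes thus held 59.7% of the member reads in vehicle replicate 1 and 87.3% to 92.5% elsewhere. The 35 members with reads that were not tested summed to 780 reads in vehicle replicate 1 and 67 to 158 reads in the others. Among these, Hist1h3b gave 45, 13 and 4 reads with vehicle and 0, 10 and 5 with DEK, and Hist1h2ak gave 48, 4 and 4 with vehicle and 3, 6 and 7 with DEK. By type, H3 genes summed to 7.04 CPM in vehicle replicate 1 against 0.647 to 1.55 CPM in the others, and H4 genes to 11.8 CPM against 1.99 to 5.54 CPM. Sums of H1, H2A and H2B, in which strongly expressed members dominate, did not set that library apart to this extent: H2A reached 10.5 CPM there and 9.93 CPM in vehicle replicate 2.

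The 3 other RNAs without a poly(A) tail that were tested were also high in the same library. A list of 23 such RNAs had 16 with rows, of which 3 were tested, and their summed level was 48508 CPM in vehicle replicate 1 against 1514 to 3212 CPM in the other 5. Nearly all of that sum was Rn45s, the precursor of ribosomal RNA, which took 4.89% of counts there and 0.159% to 0.331% elsewhere. The other 15 rows summed to 98.8 CPM in vehicle replicate 1 and 2.28 to 5.86 CPM in the other 5. In vehicle replicate 1 these rows held 4872 reads, most of them from Rmrp and Rpph1. Rmrp, the RNA of the RNase MRP complex, was counted 2655 times in vehicle replicate 1 and 122, 86, 51, 145 and 67 times in vehicle replicates 2 and 3 and DEK replicates 1, 2 and 3. Rpph1, the RNA of RNase P, gave 1986 reads there and 41 to 128 elsewhere. Genes of S phase did not share the pattern: vehicle replicate 1 was the highest library for 0 of 28, and their sum there, 2301 CPM, was the lowest of the 6 libraries, which ran up to 2851 CPM. How far RNA without a tail entered that library, and its part in the histone values, was not tested.

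**Figure D3:**
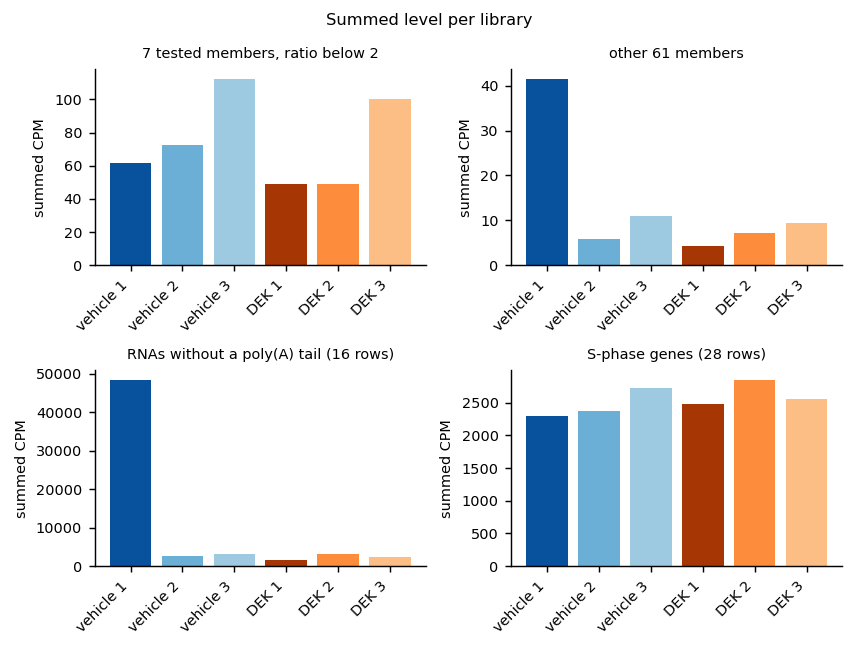
Summed CPM per library for the 7 tested members with a ratio below 2, the other 61 members, 16 RNAs without a poly(A) tail, nearly all of it Rn45s, and 28 S-phase genes; each panel has its own axis from 0. Vehicle replicate 1 stands at 41.6 CPM in the second panel and 48508 CPM in the third, and is the lowest bar for the S-phase genes.

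The annotation of 3′ ends differed between these members. A poly(A) signal, AATAAA or ATTAAA starting 10 to 40 bases from the end of a GENCODE transcript, was found for 16 members, of which 13 had a read and 9 were tested. These 16 held 14505 of the member reads, 6697 of them from Hist1h1c and 4425 from Hist2h2be. The other 52 held 7829, of which 4580 came from Hist1h2bc. The median of the members' mean RPKM was 0.572 with a signal and 0.28 without. The share of all genes with such a signal was not computed. The ratio of vehicle replicate 1 to the other libraries was below 2 in 6 of the 9 tested members with a signal (median 0.953) and in 1 of the 12 without (Hist1h2bc; median 5.55). Hist2h4, Hist1h2ae and Hist1h4h had a signal and ratios of 3.28, 2.78 and 6.39. Hist1h1c and Hist1h1e carry the same 16 bases of stem-loop, with ratios of 0.782 and 4.88. No stem-loop was matched for Hist1h2bc and Hist2h2be, with ratios below 2, or for Hist1h1a, Hist1h1b and Hist2h2bb, with ratios above it. What sets the ratio was not tested. In the 44 members with a matched stem-loop, the exons of the count table end a median of 5 bases after it. Reads lying wholly past those exons were not counted, and their number is not known. An exception is Hist1h2be, at chr13:23583670-23621124, whose exons reach 1861 bases past its stem-loop. Hist1h2bc and Hist2h2be, with 4580 and 4425 reads, have no matched stem-loop and so no such distance.

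DEK against vehicle was tested with edgeR's quasi-likelihood test, and called means a Benjamini-Hochberg adjusted p under 0.05 over 13803 genes. No member was called, 0 of 21, as was no gene at all (0%). At an unadjusted p under 0.05 there were 0 members, against 2.61% of all genes, and DESeq2 and limma-voom called 0 members too. The median log2 fold change of the 21 members was -1.23, with 20 of 21 below 0, against a median of 0.00 and 49.5% below 0 over all tested genes. The 5 lowest values belonged to Hist1h1b (-1.96 ± 0.85 SE), Hist1h4h (-1.73 ± 0.79), Hist1h1d (-1.72 ± 0.82), Hist1h1a (-1.70 ± 0.94) and Hist1h4d (-1.67 ± 0.94), all among the 14 that were high in vehicle replicate 1. The 5 highest belonged to members with a low ratio, Hist1h2be (0.38 ± 1.03), Hist1h4i (-0.18 ± 0.43), Hist1h2bc (-0.27 ± 0.55), Hist3h2a (-0.27 ± 0.22) and Hist1h1c (-0.33 ± 0.54). Of these 10, 9 lay below 0, and none was called. The ratio and the fold change both use vehicle replicate 1, so their agreement was in part set in advance.

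Leaving out vehicle replicate 1 moved the members' median log2 fold change from -1.23 to -0.37, with 16 of 20 tested members below 0. Hist1h1a then stood at 0.15 ± 0.61 SE, Hist1h4d at 0.07 ± 0.67 and Hist1h1b at -0.67 ± 0.69, while Hist2h2be stood at -0.53 ± 0.24 and Hist1h1c at -0.53 ± 0.61. None was called. Within number 1 the median difference between the DEK and the vehicle library was -2.52 and 21 of 21 members lay below 0. The medians within numbers 2 and 3 were -0.01 (11 below 0) and -0.22 (14 below 0). For the 7 members with a low ratio, the medians within numbers 1, 2 and 3 were -0.31, -0.62 and -0.20.

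**Figure D4:**
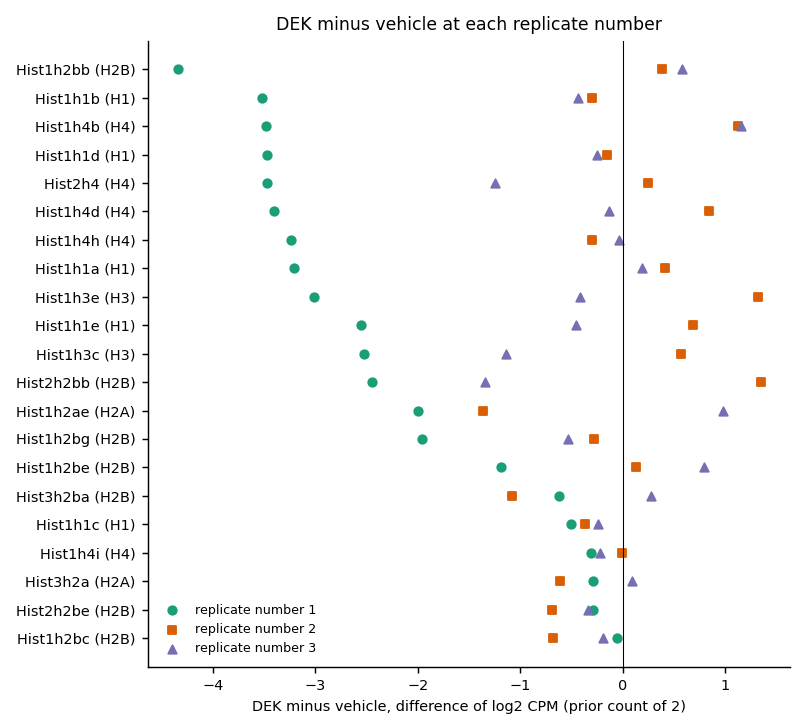
Difference between the DEK and the vehicle library of equal number for each tested member, in log2 CPM with a prior count of 2; genes are ordered by the difference at number 1. At number 1 all 21 points lie left of 0, with a median of -2.52, whereas at numbers 2 and 3 they lie on both sides.

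With the replicate number as a block, 177 of all genes were called (1.28%, and 0.413% as lower), and again 0 of 21 members, although all 21 lay below 0 (50.6% of all genes did) with a median of -1.05. At an unadjusted p under 0.05 the fit held 3 members, against 11.5% of all genes. They were Hist2h2be (-0.44 ± 0.13 SE, edgeR adjusted p = 0.147), Hist1h1c (-0.37 ± 0.11, adjusted p = 0.179) and Hist1h2bc (-0.31 ± 0.14, adjusted p = 0.424), each lower with DEK at all 3 numbers. Without number 1 the block gave a median of -0.21 with 14 of 20 below 0, and Hist2h2be, Hist1h1c and Hist1h2bc stood at -0.52, -0.30 and -0.43. Without number 3 the block called 5 of 25 tested members lower with DEK, against 2.27% of all genes: Hist1h1b, Hist1h1d, Hist1h3b, Hist1h4h and Hist2h2be, at -0.49 to -2.52; 4 of these are among the members that were high in vehicle replicate 1. The groups did not overlap for Hist2h2be and Hist1h4h, 2 of 21 members, both lower with DEK, against 7.19% of all genes in either direction and 3.41% in that one. For Hist1h4h the margin was narrow, with 1.87, 0.350 and 0.357 CPM with vehicle and 0.156, 0.276 and 0.347 CPM with DEK.

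Across replicate numbers, 4 members differed: Hist1h1c, Hist1h2bc, Hist1h2be and Hist1h4i were higher in the libraries numbered 3. These were 4 of 21, against 31.6% of all genes called between numbers by edgeR's F test with group in the model, so the members' share lay below that of all genes. Number 3 exceeded number 1 by 2.55 times for Hist1h1c (adjusted p between numbers = 1.1e-05) and by 2.48 times for Hist1h2bc (6.19e-05). For Hist1h2be the factor was 4.25 (0.00298) and for Hist1h4i 2.11 (0.0239). Hist1h2be, an H2B gene, measured 1.48, 0.625 and 3.27 CPM in vehicle replicates 1, 2 and 3 and 0.625, 0.690 and 5.69 CPM in DEK replicates 1, 2 and 3. Both libraries numbered 3 lay above the other 4 for each of the 4 genes.

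By pairs of numbers, 4 members were higher and 0 lower in number 3 than in number 1, against 18.9% and 14.1% of all genes. Against number 2, 4 were higher and 1 lower, the last being Hist2h2be (log2 -0.45, adjusted p = 0.0434, and 0.0506 with DESeq2's scaling, under which the call was lost), against 18.4% and 14.8%. Between numbers 2 and 1 there were 0 members, against 0.0507% of all genes higher and 0% lower. With library totals and no scaling factor, the median of all genes shifted to -0.16 for number 3 against 1, from -0.02, and the share of calls that were higher dropped from 57.2% to 38.2%; the 4 members still lay higher, at 0.93 (Hist1h4i) to 1.94 (Hist1h2be), although Hist1h4i no longer passed against number 2 (adjusted p = 0.104).

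These calls rest on 2 libraries per number, and leaving out 1 leaves its number with 1 library. Without DEK replicate 1, number 1 is vehicle replicate 1 alone, in which 14 of the 21 tested members were high. The F test gives no direction, so members called with a library left out need not be higher in number 3. Hist1h1c and Hist1h2bc remained called whichever library was left out. Hist1h4i lost its call with any 1 of the 6 left out (adjusted p 0.0572 to 0.104), and Hist1h2be lost it without vehicle replicate 2 (0.0588) or DEK replicate 2 (0.0706). Members called were 9 of 30 tested without vehicle replicate 3, against 29.5% of all genes, 15 of 30 without DEK replicate 1, against 25.2%, and 10 of 25 without DEK replicate 3, against 28.6%. Without vehicle replicate 2 they were 2 of 27, against 19.3%.

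**Figure D5:**
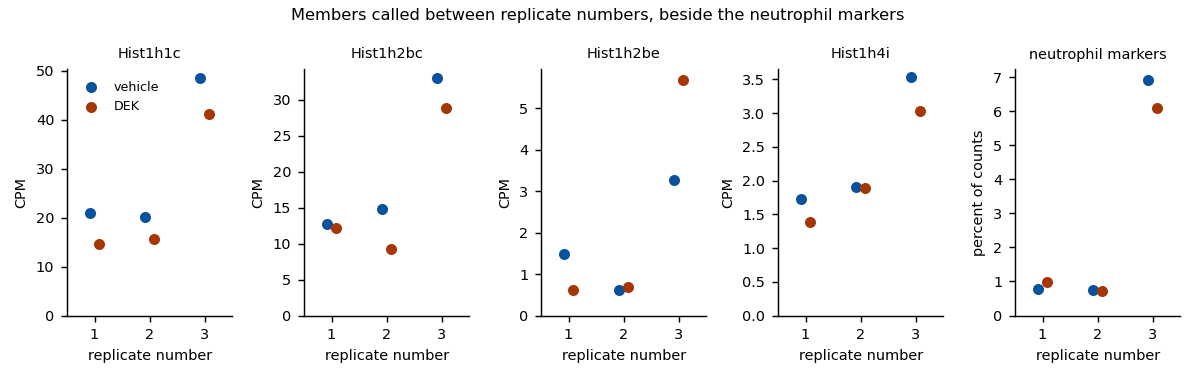
CPM of the 4 members called between replicate numbers, and the neutrophil markers as percent of all counts, by replicate number; each point is 1 library and every axis starts at 0. The libraries numbered 3 are the highest in each panel, at 6.92% and 6.10% for the neutrophil markers against 0.726% to 0.971% in the others.

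The libraries numbered 3 also differed in other cell types. All 13 tested neutrophil markers were higher there than in number 1 and than in number 2, and all 13 had reads in every library; their summed share was 6.92% for vehicle replicate 3, 6.10% for DEK replicate 3 and 0.726% to 0.971% for the other 4. Of 12 erythroid markers, 7 of 8 tested were higher in number 3 than in number 1, with sums of 2873 and 4963 CPM against 1001 to 1306 CPM. The globin genes Hba-a1, Hbb-bs and Hbb-bt had 0 reads in every library. Whether globin reads were lost in the counting, as for rows that share exons, was not tested, so these zeros do not show absent RNA. Eosinophil, mast cell and basophil markers were lower in number 3 than in number 1 (8 of 9 tested), as were progenitor markers (5 of 9) and lymphoid markers (4 of 9). Among monocyte and macrophage markers 3 of 9 were higher and 3 lower, and among megakaryocyte and platelet markers 2 of 7 were higher. Of all genes, 18.9% were higher and 14.1% lower in number 3 than in number 1. For DEK against vehicle the block called 1.28% of all genes. Among the markers it called 1 of 13 neutrophil markers higher and 2 of 9 eosinophil, mast cell and basophil markers lower. Of 9 monocyte and macrophage markers it called 2 higher and 3 lower. The part of these cells in the histone values was not tested.

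Other genes of histone supply were compared between DEK and vehicle in the same fits. Of 24 tested genes of 3′ end formation, binding and turnover of histone transcripts, edgeR called 0 with or without the block. In either fit 0 had an unadjusted p under 0.05, against 2.61% of all genes without the block and 11.5% with it. Slbp, which encodes the stem-loop binding protein, measured 75.0, 79.6 and 88.6 CPM with vehicle and 76.3, 78.9 and 75.7 CPM with DEK, and its groups overlapped (block log2 -0.07 ± 0.10 SE). Srrt and Upf1, which act in processing and decay of RNA, stood at 0.24 ± 0.11 and 0.20 ± 0.11 in the block, neither called. Both were called between numbers by edgeR (adjusted p = 0.0199 and 0.0025), within a list of which 7 of 24 were called, against 31.6% of all genes. Srrt lost the call with library totals (0.0591) and without vehicle replicate 1 (0.0831), vehicle replicate 3 (0.183) or DEK replicate 1 (0.0989).

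The other lists gave 0 calls for DEK in either fit of edgeR. They were 11 replication-independent histone genes (Cenpa 0.22 ± 0.12 SE and H2afx 0.19 ± 0.11 in the block), 19 histone chaperones (Daxx 0.39 ± 0.11, adjusted p = 0.142 by edgeR, and Nap1l1 -0.17 ± 0.10) and 28 S-phase genes (E2f2 0.26 ± 0.10 and Gins2 0.32 ± 0.12). The 3 tested RNAs without a tail likewise gave 0 calls, with a median of -2.93 without the block, which was -0.26 without vehicle replicate 1. At an unadjusted p under 0.05 in the block there were 0 replication-independent histone genes, 1 chaperone, 2 S-phase genes and 0 RNAs without a tail. The share of all genes was 11.5%. Medians without the block were -0.04 for the replication-independent histones, 0.01 for the chaperones and 0.08 for the S-phase genes, beside -1.23 for the members. Between numbers, edgeR called 5 of 11, 4 of 19, 5 of 28 and 0 of 3 of them, against 31.6% of all genes. In number 3 against number 2, 14.8% of all genes were called lower and 18.4% higher. The replication-independent histone genes called in number 3 against number 2 were 5 lower and 0 higher, among them H2afx (log2 -0.52, adjusted p = 0.00933), whose call over all numbers was lost without vehicle replicate 2 (0.084) or DEK replicate 2 (0.292).

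Depth ran from 34875736 to 49128378 counts per library. Progenitor markers summed to 7085 to 10683 CPM over the 6 libraries, and all 9 of them passed the filter. Dek itself was counted at 16.5 to 21.8 CPM in all 6 libraries, and gene totals do not show whether these reads lie in the deleted part, so they do not check the genotype.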

How the data were processed

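The authors deposited 1 table of read counts per gene, counted by featureCounts 1.6.1 from exons and summed per gene on mm10, per the file headers, with no strand or pairing option and 1 alignment per library from lane 6. Per the submitters' processing notes, Trim Galore, STAR, HTSeq and edgeR were used; the header names featureCounts for these counts. No per-sample column was left unused (0), and 0 rows named no gene.

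The steps computed here used R 4.3.3 with edgeR 4.0.16 (TMM, filterByExpr, robust quasi-likelihood, two-sided, Benjamini-Hochberg over 13803 genes, threshold 0.05), with limma 3.58.1 and DESeq2 1.42.0 as alternatives. The fits were tested on simulated data with less spread than the main fit met and with changes only in genes of higher counts. The simulated DEK effect had no effect of replicate number beside it. That check does not extend to members with few reads or to the spread seen here. The main comparison was DEK minus vehicle without a block. Standard errors come from the F statistic. Replicate numbers were compared with group in the model. Log2 CPM has a prior count of 2. RPKM uses the table's exon length.

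Pairing was checked as the correlation across genes of the deviations from the group means: 0.55, 0.56 and 0.80 for equal numbers. By the rule that all exceed 0.1 the numbers could be taken as pairs, but vehicle 2 with DEK 1 (0.52) and vehicle 1 with DEK 2 (0.41) also exceeded it. The main comparison therefore did not use the numbers, and the block was fitted as its alternative. edgeR's common coefficient of biological variation came to 33.1% without and 13.1% with the number in the model.

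Named genes were the members called with or without the block, the 3 of each type with the highest mean RPKM, the 5 lowest and 5 highest fold changes, the 5 smallest p between numbers, Slbp and 2 genes per list by the block's p; other genes singled out, such as Rmrp, Rpph1 and Rn45s, were chosen after their values were seen. Members and lists were chosen with earlier results of these data known. Annotation was GENCODE M21 and RefSeq. Alternatives were other tools, scalings and filters, each library or pair left out, and other detection thresholds.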

Additional observations from a re-analysis of the deposited data

How the results depend on the processing

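Small counts limit most members: 35 of the 56 with a read were left out by the filter. With no filter all 56 were tested, 0 were called and 3 had an unadjusted p under 0.05, against 409 of 18049 genes. Detection fell from 56 members to 21 kept by the filter, 10 with at least 10 reads in every library and 5 with at least 1 CPM in every library. The share of counts in members kept its order without Rn45s (0.0104% against 0.0071%) and without the neutrophil markers (0.0105% against 0.00733%).

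For DEK against vehicle, 0 genes were called without a block, 177 with the replicate block and 56 by DESeq2; leaving out 1 library gave 0 to 1, and the block without number 1, 2 or 3 called 181, 0 or 641. Members called were 0 in each of these, except 5 in the block without number 3 (range 0 to 5). The members' median log2 fold change ran from -0.21 (block without number 1) to -1.59 with a pair left out, from -0.37 to -1.77 with a library left out, and from -0.95 (limma-voom) to -1.36 (no filter) under the other settings. The block changed no call of a member in the comparison of all 6 libraries.

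Between numbers, 4357 genes were called, and 2584 to 4150 with 1 library left out, the lowest without DEK replicate 2 and then vehicle replicate 2 (2740). Members called ran from 2 to 15 with 1 library left out, and were 4 to 5 under other tools, scalings and filters. With library totals Hist2h2be was called (adjusted p = 0.0151).

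Signs that turned belonged to uncalled fold changes. Hist1h2be, at 0.38, was -0.0132 with the replicate block and -0.10 with limma-voom; it ran from -1.44 to 1.14 with 1 library left out and stood at -0.0543 and -0.59 in the block without number 2 and number 3. With 1 library left out, Hist1h1c ran from -0.98 to 0.22, Hist1h2bc from -0.92 to 0.29, Hist1h4i from -0.55 to 0.21, Hist1h4d from -2.15 to 0.0736, Hist1h1a from -2.14 to 0.15, Upf1 from -0.0191 to 0.48, H2afx from -0.00698 to 0.37 and E2f2 from -0.0446 to 0.52. The first 3 turned without vehicle replicate 3, Hist1h2bc also without DEK replicate 2 and Hist1h4i also without DEK replicate 1; Hist1h4d and Hist1h1a turned without vehicle replicate 1. In the block without number 1, Hist1h1e was 0.0504, Hist1h3e 0.39, Hist1h4d 0.39, Hist1h1a 0.36 and Rpph1 0.13, and without number 3 Slbp was 0.00659. The cause was not tested.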
